A study of Homo sapiens with 8 samples.

Results

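The genes described here make the building blocks of DNA and RNA. They are 35 genes of purine, pyrimidine, deoxynucleotide and one-carbon folate metabolism, chosen by name, with earlier results of these data known, out of 58735 genes in a read count table of 8 RNA-seq libraries. Of the 35 genes, 34 had enough counts to be tested together with 14621 genes in all, and the exception was CTPS2.

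The libraries came from cells labelled A549, an established human line from a lung adenocarcinoma. The EV group (4 libraries) carried an empty lentiviral vector and the KRT19 group (4 libraries, genotype KRT19-OVE in the labels) carried a lentiviral vector for Flag-tagged KRT19, the gene of keratin 19, a filament protein of epithelia. Both groups went through transduction and, per the study's methods, puromycin selection, and both were grown in RPMI-1640 with fetal bovine serum, glutamine, penicillin and streptomycin. The labels name no clone and do not say whether the 4 libraries of a group came from separate cultures, so p-values measure only the spread between these libraries, which may be technical. The comparison of the groups asks which transcripts differ when the cells carry extra KRT19.

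Purine rings are built step by step on phosphoribosyl pyrophosphate (PRPP), whereas the pyrimidine ring is made first and then joined to PRPP. Folate-bound one-carbon units enter the purine ring and also turn dUMP into dTMP, ribonucleotide reductase makes the deoxynucleotides, and salvage enzymes recycle free bases and nucleosides. Dividing tumour cells draw heavily on these routes, and several of the enzymes are targets of antimetabolite drugs.

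Read totals ran from 14073065 to 17054364 per library, and the 35 genes together took 0.421% to 0.435% of the counts. In CPM, read counts scaled to a common library size, KRT19 itself averaged 0.166 ± 0.0975 in EV libraries and 305 ± 11.0 in KRT19 libraries (SD, n = 4 each), so each library matched its group label. The line itself matched its label less well. KRT8, KRT18 and NQO1 were at 221, 315 and 439 CPM in EV, but of 16 markers of A549 cells only 6 had a mean above 10 CPM, KRT19 from the vector among them. AKR1B10, AKR1C1, AKR1C2, ALDH3A1 and GPX2 were at 0.380, 0.978, 1.47, 0.126 and 0.202 CPM in EV, and 4 markers, CDH1 and EPCAM among them, were at or under 3 counts in every library. CDKN2A and MTAP, known to be deleted in A549 cells, were at 104 and 46.2 CPM in EV. The extraction text of the labels names retinas, and of 10 retina genes 6 were at or under 3 counts in every library, SAG being at 0 in all 8. The third KRT19 library stood apart from the others of its group. Its counts differed from theirs by a chi-square of 7.14 to 12.4 per degree of freedom, against 2.67 to 6.02 for every other pair within a group.

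Because PPAT and PAICS start back to back on chromosome 4, the interval between them is shown first. PPAT, which commits PRPP to purine synthesis, runs on the minus strand at chr4:56393362-56435615, and PAICS, which carries out a pair of later steps, runs on the plus strand at chr4:56435741-56464579 (GRCh38). The interval between their starts is 125 bases long, 76.0% G or C, and holds 15 CpG dinucleotides and no CACGTG.
PPAT to PAICS interval, chr4:56435616-56435740, plus strand: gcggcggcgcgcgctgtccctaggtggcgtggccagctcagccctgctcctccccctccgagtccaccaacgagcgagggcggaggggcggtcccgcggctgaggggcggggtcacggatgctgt

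The other feature looked for was the palindrome CACGTG, the core E-box bound by MYC and other factors, some of whose targets are nucleotide synthesis genes. Promoter windows from 250 bases before to 50 bases after the RefSeq start (GRCh38.p14) were found for 32 of the 35 genes. ADSL, IMPDH2 and SHMT2 had none. At least 1 window held CACGTG in 10 of the 32 genes, or 31.2%, against 8.77% of 27305 genes with a window. Counted by window, the shares were 24.5% of 49 member windows and 7.26% of 35116 windows, and the member windows were also richer in CpG, with a median of 26 against 14. The 10 genes were ATIC, DCK, DCTPP1, DHODH, MTHFD1, MTHFD1L, NME1, PAICS, PPAT and SLC29A1. PPAT and PAICS shared a single site, which lies inside PAICS beyond its start. Sites near the start of 5 of these genes are printed on the strand of the gene, with CACGTG in capitals and its first base numbered from the start.
ATIC at -46, chr2:215312003-215312028: gccggcgggcCACGTGataagcccgg
ATIC at 29, chr2:215312078-215312103: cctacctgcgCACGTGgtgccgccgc
DCTPP1 at -9, chr16:30429794-30429819: agggttcctcCACGTGgtcgggaagc
MTHFD1 at -15, chr14:64388328-64388353: agtccctaagCACGTGggttgggttg
NME1 at 34, chr17:51153583-51153608: tgctgcgaacCACGTGggtcccgggc
PAICS at 40, chr4:56435782-56435801: gtatttgctgCACGTGgaaa

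A match in these letters is a description of the sequence and says nothing of binding. The 10 genes with CACGTG had a median log2 fold change of 0.031 between KRT19 and EV, and the 21 tested genes without it had 0.030.

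Levels are compared between genes as CPM per kilobase of annotated exon, which takes out gene length. On this scale the median gene was at 24.6 in EV, with 24 genes between 10 and 50, 4 genes above 50 and 7 genes below 10. IMPDH2, which makes xanthosine monophosphate on the way to guanine nucleotides, had the highest level, 136 CPM per kilobase. TK1, the cytosolic thymidine kinase, followed at 84.8, and APRT, which salvages adenine, at 73.8. The lowest levels were those of CTPS2 at 0.0162, ADSL at 0.669 and NME2 at 1.78. In counts, the 32 tested genes other than ADSL and NME2 had at least 293 reads in every library, while the smallest tested value was 54 reads.

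**Figure D1:**
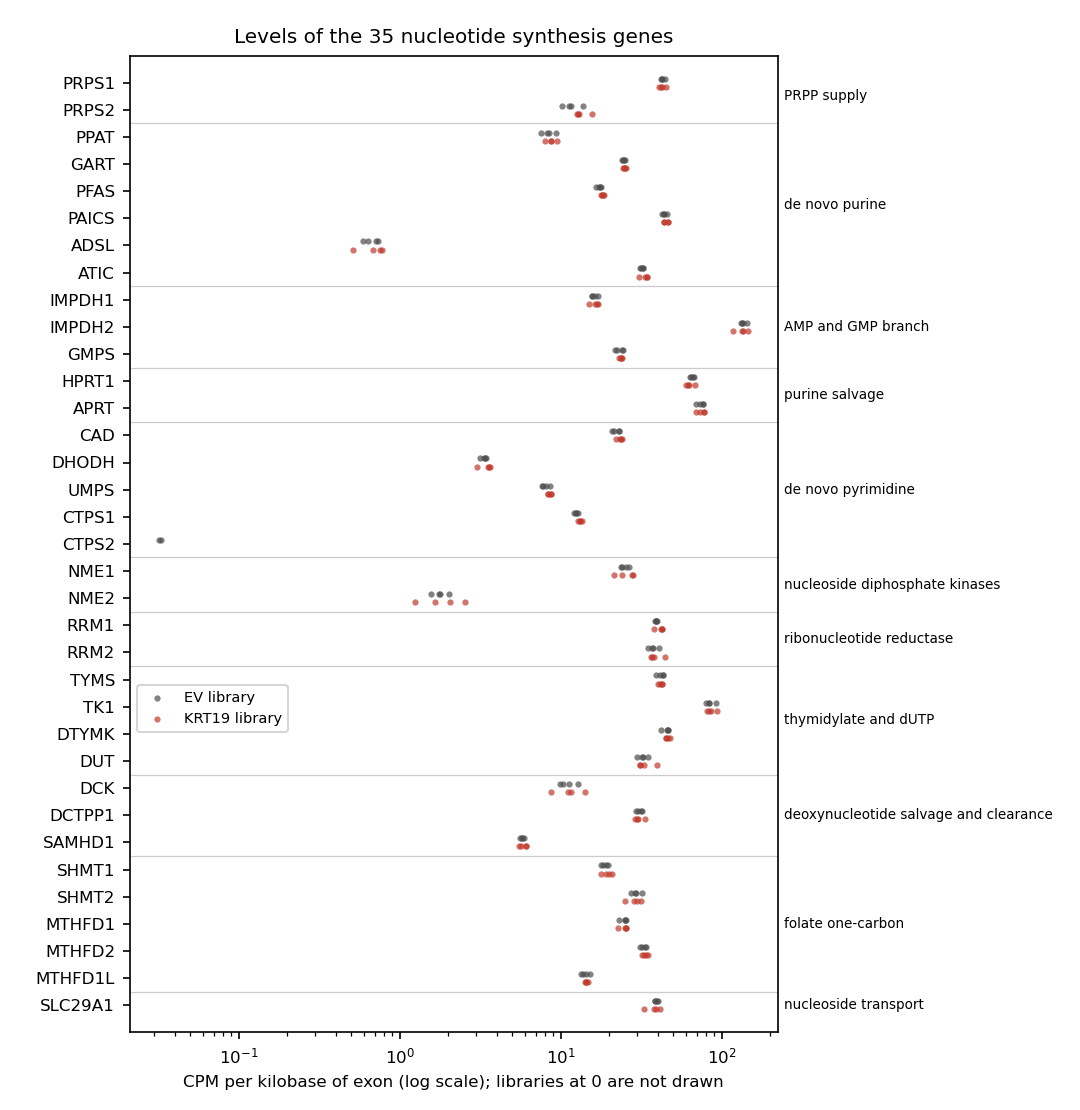
Level of each of the 35 genes in CPM per kilobase of exon (horizontal, log scale), ordered by role, with 1 grey point per EV library and 1 red point per KRT19 library; libraries at 0 are not drawn. IMPDH2 is highest at 136 in EV, CTPS2, ADSL and NME2 are lowest, and red and grey points of the same gene lie close together.

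Some of these levels depend on how reads in shared exons were assigned, which is not given in the sources used here. Of the 35 genes, 15 had coding bases inside an exon of another annotated gene. The whole coding sequence of NME2 and 75.6% of that of NME1 lie in the NME1-NME2 readthrough gene, which itself received 1 to 8 counts per library. For ADSL 68.8% of the coding bases lie in AL022238.4 (0 to 2 counts), and for RRM2 78.5% lie in AC007240.1 (5 to 14 counts). On the opposite strand, 52.1% of the coding bases of TYMS lie in exons of ENOSF1 or TYMSOS, and ENOSF1 had 916 to 1159 counts per library. For DCTPP1 the share in ZNF771 was 41.6%. The levels of these 6 genes are therefore uncertain. In the other 9 the share was at most 32.6%, that of DUT. These shares leave out untranslated exons. Over whole transcripts, MTHFD2 shared 25.6% of its 75-base stretches with other genes, mostly SLC4A5, against 19.0% for RRM2. The level of MTHFD2 is thus uncertain too.

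Between KRT19 and EV, none of the 34 tested genes passed the threshold of 0.05 after Benjamini-Hochberg adjustment over all 14621 genes (edgeR, quasi-likelihood test), and the smallest adjusted p among them was 0.906. Across all genes, KRT19 alone passed, which is 0.00684% of those tested. At an unadjusted p under 0.05, the threshold the study used, 1 of the 34 genes (2.94%) was higher in KRT19, PRPS2, against 2.85% of all genes. None was lower, against 2.56% of all genes. No member had groups that did not overlap, whereas 1.63% of all genes were higher and 1.81% lower in every KRT19 library than in every EV library. Over all genes, 417 were higher and 374 lower at that threshold, so 52.7% of these calls were higher, and with upper-quartile scaling 40.5% were. The members' shares do not set them apart from the other genes.

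The differences that were measured were small. Of the 34 genes, 27 differed by under 5% between the groups and 33 by under 10%. Of all 14621 genes tested, 7634 differed by under 5% and 11274 by under 10%, with a larger median standard error of 0.084. The log2 fold change, KRT19 minus EV, ran from -0.057 for SLC29A1 to 0.21 for PRPS2, with a median of 0.029 and a median standard error of 0.056. With upper-quartile scaling the median was 0.017. The median over all genes tested was 0.0051. For 30 of the 34 genes the 95% interval lay wholly within 0.25 of 0 on the log2 scale, and the 4 exceptions were PRPS2, ADSL, NME2 and DCK.

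The sign of these small differences was uneven. In 28 of the 34 genes (82.4%) the log2 fold change was above 0 and in 6 it was below 0, against 52.2% above 0 among all genes tested and 53.7% among the 10510 genes in the same range of levels. The share has no test, because the genes share libraries and scaling and are not independent. Without the first KRT19 library 22 were above 0, without the third 27, and with upper-quartile scaling 25.

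**Figure D2:**
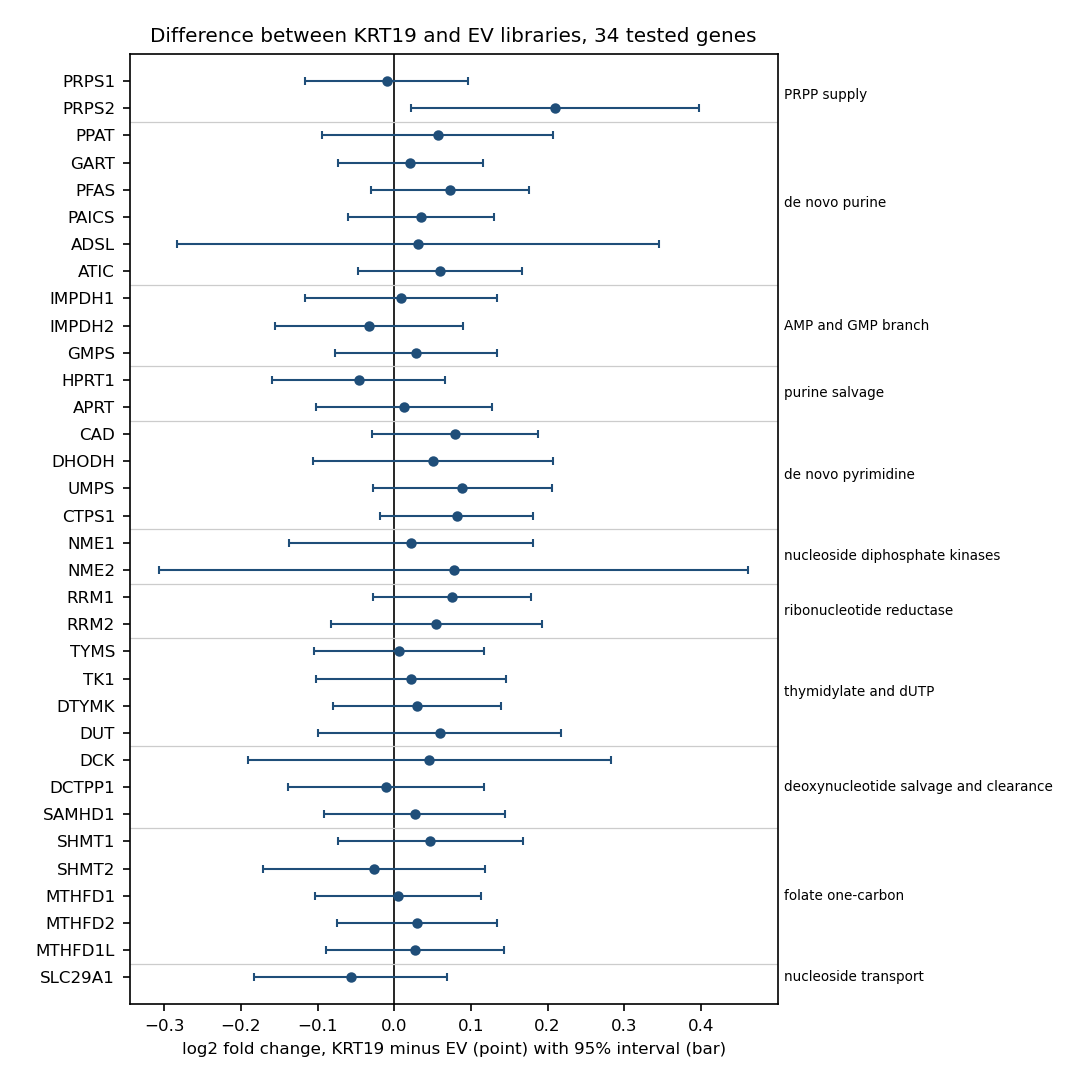
Log2 fold change of each of the 34 tested genes, KRT19 minus EV (point), with its 95% interval from edgeR (bar), ordered by role. PRPS2 is the only gene whose interval lies wholly above 0, and 28 of 34 points lie above 0.

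PRPP synthetases make the sugar phosphate that both ring pathways need. PRPS2 (chrX:12791355-12824222, plus strand) was at 30.9, 38.0, 32.1 and 28.1 CPM in the EV libraries 1 to 4. In the KRT19 libraries 1 to 4 PRPS2 was at 34.95, 35.3, 42.9 and 35.8 CPM. The third KRT19 library was the highest of all, and the second EV library lay above the other KRT19 libraries, so the groups overlapped. The means were 32.3 ± 4.16 in EV and 37.3 ± 3.79 CPM in KRT19 (SD, n = 4 each), a log2 fold change of 0.21 ± 0.089 (SE; 95% interval 0.021 to 0.40). In edgeR the unadjusted p was 0.0312 and the adjusted p 0.906, and the exact permutation test over the 70 ways of labelling the libraries (two-sided) gave p = 0.114. Without the third KRT19 library the log2 fold change of PRPS2 was 0.13, and without the fourth EV library it was 0.15, and in neither fit, nor in the fit without the first EV library, was the unadjusted p under 0.05.

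PRPS1, the close paralog of PRPS2, was the more abundant isoform, at 42.9 CPM per kilobase of exon in EV against 11.7 for PRPS2. Its libraries read 111, 112, 111 and 116 CPM in EV and 118, 111, 108 and 111 CPM in KRT19. The highest and the lowest value were both KRT19 libraries, and the log2 fold change was -0.010 ± 0.050. The ratio of PRPS1 to PRPS2 per kilobase was 3.67 in EV and 3.16 in KRT19.

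The 6 genes of de novo purine synthesis all had log2 fold changes above 0, between 0.021 and 0.073, and none passed the test. Under the alternatives the sign turned for ADSL, to as low as -0.15 with limma-voom, and for PPAT, to -0.011 with GC and length correction, and GART was at 0.0092 without the second EV library. PPAT averaged 45.6 ± 4.06 and 47.4 ± 3.30 CPM in EV and KRT19, and its neighbour PAICS was at 330 ± 8.89 and 339 ± 11.2 CPM. PAICS exceeded PPAT by 7.25 times in EV and 7.15 times in KRT19 on the CPM scale, and by 5.25 and 5.17 times per kilobase, so the back-to-back pair kept unequal levels in both groups. GART, a trifunctional enzyme that also uses formyl-folate, was at 190 and 193 CPM. PFAS, the amidotransferase step, was at 112 ± 3.23 and 118 ± 2.38 CPM (log2 fold change 0.073 ± 0.049; exact permutation p = 0.0571), with only the first KRT19 library below an EV library. ATIC, which closes the ring to IMP, was at 125 ± 2.87 and 130 ± 6.15 CPM.

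ADSL, adenylosuccinate lyase, works both in ring synthesis and in the branch to AMP. It was at 4.53, 5.24, 4.20 and 5.06 CPM in EV and at 4.83, 5.40, 5.56 and 3.64 CPM in KRT19. The lowest and the highest library were both in the KRT19 group. The log2 fold change was 0.031 with an SE of 0.15 and a 95% interval of -0.28 to 0.35, so the SE exceeded the difference. The counts also depend on how reads in shared exons were assigned, since 68.8% of the coding bases lie in AL022238.4.

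In the branch to GMP, IMPDH2 read 368, 369, 399 and 377 CPM in EV and 405, 374, 328 and 372 CPM in KRT19. The third KRT19 library was the lowest and the first the highest, and the log2 fold change was -0.033 ± 0.058. IMPDH1, the isoform of lower level here, read 57.1, 57.7, 62.9 and 60.2 CPM in EV and 62.8, 60.2, 55.0 and 61.3 CPM in KRT19, and the third KRT19 library was again the lowest. Per kilobase IMPDH2 exceeded IMPDH1 by 8.40 times in EV and 8.16 times in KRT19. GMPS, which aminates XMP to GMP, was at 206 ± 11.9 and 210 ± 3.18 CPM.

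The 2 purine salvage enzymes lay on either side of 0. HPRT1, which recycles hypoxanthine and guanine, averaged 106 ± 2.74 and 103 ± 5.61 CPM in EV and KRT19, a log2 fold change of -0.046 ± 0.053. It was -0.023 without the first KRT19 library and -0.084 without the third. APRT read 125, 132, 137 and 137 CPM in EV and 140, 133, 124 and 139 CPM in KRT19. Its groups overlapped almost fully, with a log2 fold change of 0.013 ± 0.055.

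All 4 tested genes of pyrimidine synthesis had log2 fold changes above 0, from 0.050 to 0.088. CAD, the trifunctional protein that starts the pathway, averaged 186 ± 9.98 and 197 ± 7.11 CPM in EV and KRT19 (log2 fold change 0.079 ± 0.051, and 0.050 without the second EV library). DHODH, the mitochondrial step, was at 23.0 ± 0.765 and 23.8 ± 2.04 CPM. Its log2 fold change was 0.050, and it was 0.019 without the first KRT19 library and 0.11 without the second. UMPS, which finishes UMP, was at 60.7 ± 3.03 and 64.6 ± 1.53 CPM (0.088 ± 0.055; exact permutation p = 0.0857). None of the 4 passed the test.

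CTP synthetases convert UTP to CTP, and nearly all of their reads belonged to CTPS1. CTPS1 read 143, 139, 145 and 148 CPM in EV and 156, 153, 147 and 152 CPM in KRT19. A single EV library, the fourth, lay above a KRT19 library, the third (log2 fold change 0.082 ± 0.047; exact permutation p = 0.0571). CTPS2 (chrX:16588003-16712936, minus strand) had 0, 3, 0 and 3 reads in the EV libraries and 0 reads in each KRT19 library. Every library was thus at or under 3 reads, which correspond to 0.176 to 0.213 CPM, and no fold is given. These limits cover counting error only.

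The nucleoside diphosphate kinases NME1 and NME2 pass phosphate between nucleotides and lie next to each other on chromosome 17. NME1 read 83.1, 87.2, 91.8 and 81.3 CPM in EV and 94.9, 83.1, 74.1 and 96.6 CPM in KRT19. NME2 read 5.33, 4.70, 4.14 and 4.59 CPM in EV and 3.26, 4.34, 6.68 and 5.43 CPM in KRT19. In both genes the KRT19 libraries were more spread than the EV libraries, and the third KRT19 library was the lowest for NME1 and the highest for NME2. The log2 fold changes were 0.022 ± 0.075 and 0.077 ± 0.18.

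Ribonucleotide reductase, the enzyme that makes deoxynucleotides, has a large subunit, RRM1, and a small subunit of dividing cells, RRM2. RRM1 was at 163 ± 1.33 CPM in EV, the smallest relative spread of the 34 genes, and at 172 ± 8.29 CPM in KRT19 (log2 fold change 0.075 ± 0.049). The first KRT19 library, at 160 CPM, lay below every EV library, and the other KRT19 libraries, at 175 to 177 CPM, lay above them. RRM2 was at 200 ± 14.1 and 207 ± 19.2 CPM (0.055 ± 0.065). Per kilobase the subunits were nearly level as counted, with RRM1 at 1.04 times RRM2 in EV and 1.06 times in KRT19. The ratio is uncertain, because 78.5% of the coding bases of RRM2 lie in exons of AC007240.1.

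In the thymidine branch none of the 4 genes passed the test. TYMS, which methylates dUMP to dTMP, was at 103 ± 4.90 and 103 ± 2.58 CPM, a log2 fold change of 0.0059 ± 0.052. TK1 read 149, 155, 173 and 155 CPM in EV and 175, 160, 151 and 155 CPM in KRT19, so the groups overlapped. DTYMK, the next kinase, was at 110 ± 5.15 and 113 ± 2.75 CPM, and DUT, which removes dUTP, was at 119 ± 7.89 and 124 ± 15.5 CPM.

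Of the enzymes that recycle or clear deoxynucleotides, DCK, which phosphorylates deoxycytidine, was the most variable. It averaged 35.7 ± 4.19 and 36.7 ± 7.08 CPM in EV and KRT19, where the first library was lowest at 28.2 CPM and the third highest at 45.5 CPM. DCTPP1, a pyrophosphatase of dCTP, was at 48.9 ± 1.95 and 48.5 ± 3.05 CPM. SAMHD1, which breaks down deoxynucleotide triphosphates, was at 64.7 ± 1.54 and 65.9 ± 3.51 CPM.

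The folate enzymes supply formyl and methylene groups from serine. SHMT1 in the cytosol averaged 137 ± 6.22 and 141 ± 9.59 CPM in EV and KRT19, and SHMT2 in mitochondria at 142 ± 10.2 and 139 ± 13.4 CPM. The cytosolic MTHFD1 was at 231 ± 9.33 and 232 ± 12.3 CPM. The mitochondrial MTHFD2 was at 159 ± 6.12 and 163 ± 6.002 CPM, and MTHFD1L, which releases formate in mitochondria, at 70.9 ± 3.89 and 72.3 ± 1.497 CPM. Their log2 fold changes lay between -0.027 and 0.047. With a library left out they ran from 0.012 to 0.089 for SHMT1, 0.0070 to 0.051 for MTHFD2 and 0.0022 to 0.063 for MTHFD1L. SLC29A1, the equilibrative nucleoside transporter, was at 173 ± 3.99 and 167 ± 15.1 CPM, the third KRT19 library being lowest at 146 CPM (log2 fold change -0.057 ± 0.060).

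For most of the 34 genes the KRT19 libraries differed more among themselves than the EV libraries did. In counts over all genes, KRT19 pairs without the third library did not, with chi-squares of 2.67 to 3.54 per degree of freedom. EV pairs had 2.97 to 6.02. The coefficient of variation, over all 4 libraries of a group, was larger in KRT19 than in EV for 22 of the 34 genes, with a median of 5.46% against 4.50%. The third KRT19 library gave the highest of the 8 values in 12 genes and the lowest in 10, and the first gave the highest in 11 and the lowest in 4. No EV library was the highest in more than 2 genes. Without the third KRT19 library the sign of the log2 fold change turned in 9 of the 34 genes. It became positive for PRPS1 (0.0081), IMPDH2 (0.021), SHMT2 (0.033) and SLC29A1 (0.0023). It became negative for ADSL (-0.044), NME2 (-0.11), RRM2 (-0.012), DUT (-0.033) and DCK (-0.078). None of these genes passed the test with or without that library.

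**Figure D3:**
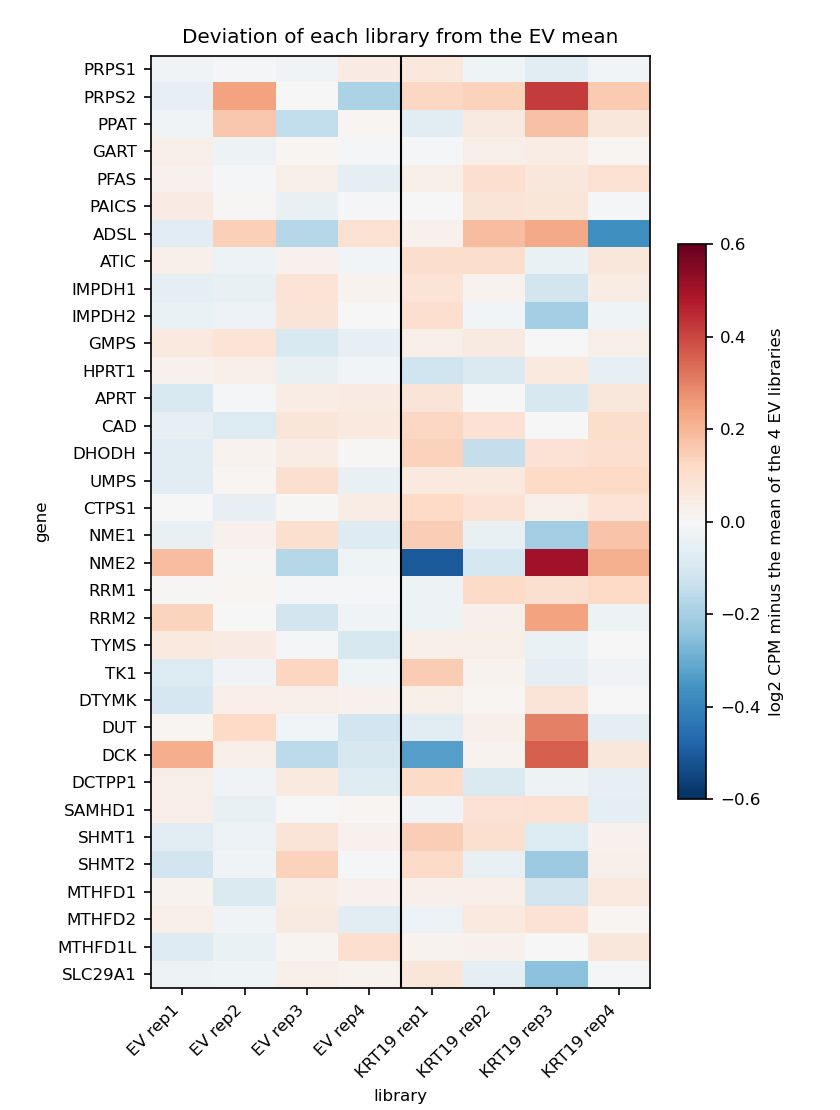
Log2 CPM of the 34 tested genes (rows) in the 8 libraries (columns), as the difference from the mean of the 4 EV libraries; red is higher and blue lower. The third KRT19 library holds the deepest reds and many of the blues, with PRPS2, NME2 and DCK red and IMPDH2, SHMT2 and SLC29A1 blue.

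As a mean over the 34 tested genes, log2 CPM was 6.51, 6.53, 6.52 and 6.503 in EV and 6.54, 6.55, 6.56 and 6.55 in KRT19. The groups did not overlap, at 6.52 ± 0.011 in EV and 6.55 ± 0.010 in KRT19, and the difference was 0.031. They came close, the nearest libraries reading 6.527 in EV and 6.539 in KRT19. The other tested genes of these pathways, 62 in number, also separated, in the opposite direction, at 5.21 ± 0.011 in EV and 5.19 ± 0.012 in KRT19, although the nearest libraries of the groups both read 5.20. A list of 12 S phase markers showed the same order of the groups. Its mean log2 CPM was 7.02 ± 0.021 in EV and 7.13 ± 0.019 in KRT19 without overlap, and all 12 had log2 fold changes above 0, with a median of 0.094. Of the 12, MCM3 (0.10 ± 0.048), MCM4 (0.095 ± 0.043), CCNE2 (0.29 ± 0.13) and UHRF1 (0.16 ± 0.048) had an unadjusted p under 0.05 in edgeR and none an adjusted p under 0.05. That is 33.3% called higher, against 2.85% of all genes, and 100% above 0, against 52.2%. The 12 markers of G2 and M were at 8.07 ± 0.034 and 8.12 ± 0.037, and the groups overlapped. RRM1, RRM2, TYMS and TK1 are known to follow the cell cycle, and the part of cell cycle state in the members' values was not tested. These are bulk libraries, in which fewer cells with a transcript and less of it per cell cannot be told apart.

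**Figure D4:**
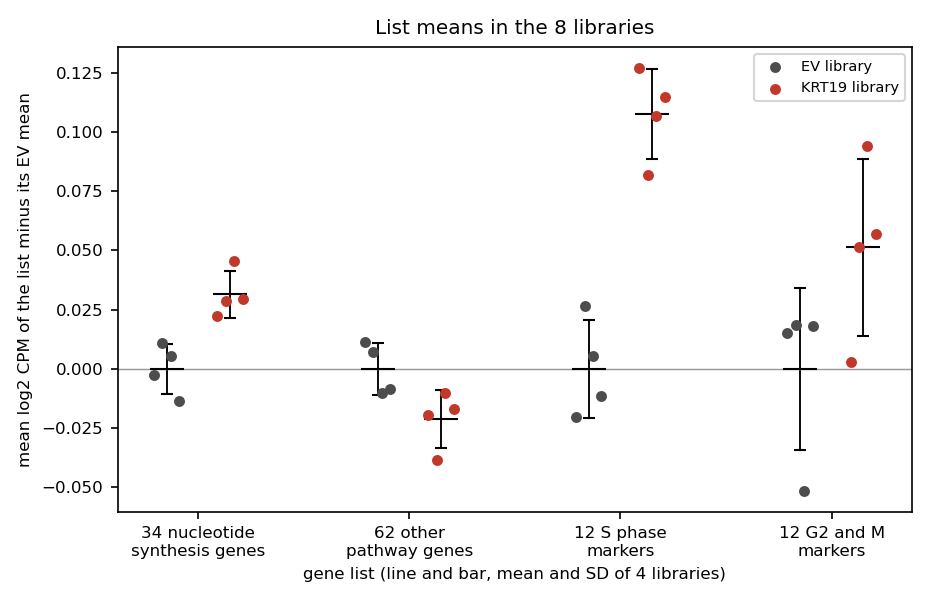
Mean log2 CPM of 4 gene lists in each library, minus the EV mean of that list, with grey points for EV, red points for KRT19, and a line and bar for the mean and SD of 4 libraries. The 34 nucleotide synthesis genes are 0.031 higher in KRT19 and the 12 S phase markers 0.11 higher. Neither list overlaps, but the gap of the 34 genes is narrow. The 62 other pathway genes are lower, with the nearest EV and KRT19 libraries almost level.

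The remaining genes of these pathways were taken as a list of 78, of which 62 were tested. They leaned the other way, with 26 above 0 and 36 below 0 and a median log2 fold change of -0.021. That median was -0.0063 without the third EV library and -0.032 with upper-quartile scaling. None passed the adjusted threshold in edgeR, none was higher and 1, MTRR, was lower at an unadjusted p under 0.05. That is 1.61% of the 62, below the 2.56% of all genes, and the share without overlap, also 1.61%, was below the 1.81% of all genes. MTRR is described here because it is the gene of the list under that threshold. MTRR, the reductase that keeps the folate-dependent methionine synthase active, read 20.8, 24.0, 20.9 and 22.3 CPM in EV and 18.8, 17.6, 20.4 and 18.4 CPM in KRT19. Every KRT19 library lay below every EV library, with means of 22.0 ± 1.52 and 18.8 ± 1.16 CPM. The log2 fold change was -0.23 ± 0.077, with an adjusted p of 0.889 in edgeR, and the exact permutation p of 0.0286 is the smallest that 4 libraries against 4 can give.

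MTAP, which returns methylthioadenosine to adenine for APRT to salvage, was at a mean of 46.2 ± 3.58 CPM in the EV libraries and 47.5 ± 2.55 CPM in the KRT19 libraries (log2 fold change 0.042 ± 0.066).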

How the data were processed

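The authors deposited a table of raw read counts per gene, 1 column per library, without normalization. The submitters' processing notes name Bowtie 0.12.2, featureCounts 1.5.0-p3, DESeq2 and hg38 without giving their roles. Strand and multi-gene read settings are not given in the sources used here. All 58735 genes had the start, end and exon length of GENCODE 29, and that length was used for levels per kilobase.

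Groups came from the sample titles. The test was that of edgeR 4.0.16 under R 4.3.3 (filterByExpr, TMM, glmQLFit, glmQLFTest, group only), with Benjamini-Hochberg adjustment over the 14621 genes kept, which took 99.8% or more of every library. CPM used TMM-scaled sizes, and log2 CPM a prior count of 2. Standard errors are the log2 fold change over the root of F. Single genes were also compared by exact permutation, whose smallest p is 0.0286. The members, the other gene lists and the tests were chosen with earlier results of these data known. All 35 members are named. Libraries are given one by one for members with an unadjusted p under 0.05 or groups without overlap, for the 3 highest and 3 lowest levels per kilobase and for PRPS1 and PRPS2, CTPS1 and CTPS2, IMPDH1 and IMPDH2, and NME1 and NME2. Other pathway genes and cell cycle markers are named at an unadjusted p under 0.05, with MTAP and 1 further gene, which is not reported here, added by name. Alternatives used DESeq2 1.42.0, limma 3.58.1, other scalings and filters, GC and length correction (splines with 5 degrees of freedom), a block, and leaving out each library.

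On simulated counts for 14469 genes with these libraries' sizes, edgeR recovered 93.5%, 77.5% and 18.0% of 200 genes changed by 1, 0.5 and 0.25 on the log2 scale, with 13, 8 and 4 false calls.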

Additional observations from a re-analysis of the deposited data

Results flagged for a closer look

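In groups of 4 libraries, the distance of the highest or lowest library to its neighbour was divided by the spread of all 4 and set against Dixon's 95% critical value. Of 96 groups examined 6 passed, where chance alone gives about 1 in 20, or 4.8. For PRPS2, the third KRT19 library was highest with a gap of 0.884 of the range, at a log2 CPM of 5.43 against 5.13 to 5.17. The same library was lowest for MTHFD1 (0.858; 7.74 against 7.88 to 7.91) and for the mean of the 5 folate enzymes (0.835; 7.05 against 7.15 to 7.17). For RRM1 the first KRT19 library was lowest (0.845; 7.32 against 7.45 to 7.47). For DTYMK the first EV library was lowest (0.923; 6.68 against 6.82 to 6.83). For the mean of the 12 G2 and M markers the third EV library was lowest (0.953; 8.01 against 8.08).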

How the results depend on the processing

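Over 16 alternatives, no member passed the adjusted threshold, and the smallest adjusted p was 0.449 (CAD, GC and length correction). PRPS2 had an unadjusted p under 0.05 in 13 of 16, with adjusted p from 0.476 to 1.00, and MTRR in 16 of 16. The median log2 fold change of the members ran from 0.017 (upper-quartile scaling) to 0.037, and upper-quartile scaling took the share of higher genes among unadjusted calls from 52.7% to 40.5%.

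Genes past the adjusted threshold numbered 5 with DESeq2, 8 with limma-voom and quality weights (voom), 71 with the looser filter, 6 with GC and length correction, 4 with that and the replicate block, and 1 to 5 with a library left out (3 without the first EV library, 5 without the third KRT19 library). At an unadjusted p, genes higher and lower numbered 656 and 681 of 14621 with voom, and 228 and 223 with the replicate block. They numbered 889 and 670 of 30250 with the looser filter. With GC and length correction they numbered 681 and 544 of 14621, and with the block added 538 and 438. With a library left out they numbered 323 to 722 and 297 to 506 (722 without the first KRT19 library). Members higher numbered 4 of 34 with voom (PRPS2, PFAS, UMPS, RRM1), beside 656 of 14621 genes. With GC and length correction they numbered 4 (PRPS2, ATIC, CAD, UMPS), beside 681 of 14621 genes. With that and the replicate block they numbered 3 (PRPS2, CAD, UMPS), beside 538 of 14621 genes. With a library left out they numbered 0 to 2. They were 0 without the first or the fourth EV library. Without the first KRT19 library they were 2 (PRPS2, RRM1), beside 722 of 14823 genes. Without the third they were 2 (CAD, CTPS1), beside 368 of 14782 genes. Members lower numbered 1 with the looser filter (CTPS2), beside 670 of 30250 genes. With GC and length correction they numbered 1 (HPRT1), beside 544 of 14621 genes. Other pathway genes higher numbered 1 with voom, the looser filter, and GC and length correction with or without the block, and 0 to 2 with a library left out (1 without the first EV library, 2 without the first KRT19 library). Those lower numbered 2 with voom, the looser filter and GC and length correction, and 1 to 4 with a library left out (3 without the first EV or the third KRT19 library, 2 without the second and 4 without the first). The causes of these shifts were not tested.

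Of the 34 members, 14 kept their sign throughout and 20 did not. Signs turned with voom for ADSL (-0.15), SAMHD1 (-0.0031) and SHMT2 (0.017), with upper-quartile scaling for IMPDH1 (-0.0032), TYMS (-0.0060) and MTHFD1 (-0.0067), and with GC and length correction for PPAT (-0.011, and -0.0072 with the replicate block), DCK (-0.0011 and -0.0070) and DCTPP1 (0.0012). With a library left out, log2 fold changes ran from -0.036 to 0.0081 for PRPS1, -0.044 to 0.14 for ADSL, -0.017 to 0.048 for IMPDH1, -0.080 to 0.021 for IMPDH2, -0.0014 to 0.056 for GMPS, -0.016 to 0.049 for APRT, -0.030 to 0.094 for NME1, -0.11 to 0.24 for NME2, -0.012 to 0.10 for RRM2, -0.025 to 0.025 for TYMS, -0.023 to 0.068 for TK1, -0.0033 to 0.042 for DTYMK, -0.033 to 0.099 for DUT, -0.078 to 0.16 for DCK, -0.056 to 0.013 for DCTPP1, -0.077 to 0.033 for SHMT2, -0.025 to 0.043 for MTHFD1 and -0.10 to 0.0023 for SLC29A1.

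The libraries share replicate numbers, but deviations of same-numbered libraries correlated at -0.11, -0.024, -0.16 and 0.057, so no shared deviation was seen. These values cannot tell whether same-numbered libraries were prepared together. The replicate block gave 1 gene and 0 members past the adjusted threshold and a member median of 0.030. In the simulation over all genes, most changes of 0.25 on the log2 scale did not pass the adjusted threshold.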
